A study of Talpa occidentalis with 24 samples.

Results

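The gene annotation deposited with a chromatin study of the Iberian mole, Talpa occidentalis, holds 1650 single-exon models that look like retrocopies of genes with introns. They were found in the gene models on the talOcc3 assembly by 3 criteria: a name with a copy suffix, exactly 1 exon, and another model of the same name with at least 3 exons on another scaffold. Names of cytochrome P450 and olfactory receptor genes were left out, families known for gene duplication and, for the receptors, for coding regions without introns. Models whose ID begins with exonerate, the name of an alignment tool, were also left out. All of these are called barred below. The 1650 models make up 7.07% of all 23336 models and 57.7% of the 2862 single-exon models with a copy suffix. Of the other single-exon models with the suffix, 498 had a barred name, 602 had no model of at least 3 exons under their name, and 112 had one on the same scaffold only.

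The study measured histone marks by chromatin immunoprecipitation and sequencing in gonads of wild-type moles at postnatal day 7. Females of this species carry ovotestes, gonads with both an ovarian and a testicular portion. The 24 libraries come from these portions, taken separately, and from testis, with 8 libraries per tissue. In each tissue H3K4me3, H3K4me1, H3K27ac and H3K27me3 were profiled in 2 replicates. The gene models carry no value from any library, so everything below is a count, a length or a position in 1 annotation, with no replicate and no test.

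A retrocopy arises when the messenger RNA of a gene is reverse transcribed and the DNA is inserted elsewhere in the genome. The copy lacks the introns of its source gene, usually lacks its promoter, and often decays into a pseudogene. In mammals the enzymes for this step come from LINE-1 elements, and only insertions in the germ line are inherited. Short, abundant messages of housekeeping genes, those of ribosomal proteins above all, are known for many retrocopies. A single-exon model can also be a fragment of a gene on a short scaffold, 1 large exon of a diverged duplicate, or a match to a mobile element, and the 3 criteria do not tell these apart. Below, a name with copies is called a parent and its single-exon models copies, as labels with no statement on descent.

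The copies belonged to 694 parents. These were 4.94% of the 14040 names that had a model of at least 3 exons and were not barred, with a 95% Wilson interval of 4.60 to 5.31%. Wilson intervals here cover counting only, and the 4.94% is fixed by the criteria. Most parents had few copies: 472 had 1, 107 had 2 and 115 had at least 3. The 27 parents with at least 10 copies held 34.2% of all copies, and the 10 with most held 21.6%.

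The 25 parents with most copies were led by COX1, with 78, and by the uncharacterised loci LOC107986724, with 65, and LOC105379528, with 48. COX1 encodes subunit 1 of cytochrome c oxidase and is a gene of the mitochondrial genome. Ribosomal proteins formed the largest set among the 25, with 11 names. RPL21 had 29 copies, RPL9 28, RPL17 18, RPS24 16, RPL26 14 and RPS14 13. RPL7A had 12, RPL10 and RPL29 had 11 each, and RPL15 and RPL31 had 10 each. These proteins build the subunits of the cytosolic ribosome. PPIA, which encodes the prolyl isomerase cyclophilin A, had 18 copies. EEF1A1, the elongation factor that brings aminoacyl-tRNA to the ribosome, had 11. COX20, an assembly factor of cytochrome c oxidase encoded in the nucleus, had 18. The other names were TRIM38, a ubiquitin ligase of innate immune signalling, with 29 copies, LOC107983994 with 24, and XYLB, a xylulose kinase, with 20. QSER1 had 15, GVINP1, named for a pseudogene of a large interferon-inducible GTPase, had 13, and the zinc finger names ZNF658B and ZNF717 had 12 and 11. BMS1P20, named for a pseudogene of a ribosome assembly factor, had 10. RPL36A and RPL7 also had 10 copies and follow RPL31 in the alphabet.

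**Figure D1:**
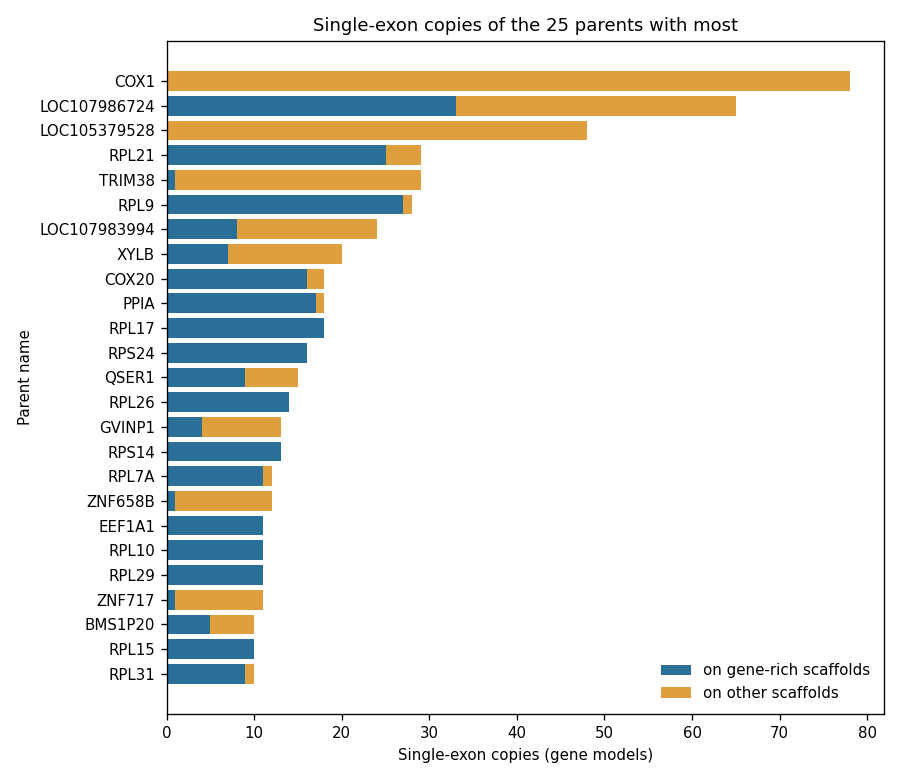
Number of single-exon copies (x axis, gene models) of the 25 parents with most, split into copies on gene-rich scaffolds, which hold at least 10 models of at least 3 exons, and copies on other scaffolds. COX1 and LOC105379528 have no copy on a gene-rich scaffold, whereas RPL17, RPS24, RPL26 and RPS14 have all of theirs there.

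A further measure joins target ranges, which the criteria did not use, to exon counts, which they did use. Each model gives the range of the target transcript or protein that it matches. Where a copy and its parent match the same target in the same unit, the exon junctions of the parent can be placed on the range of the copy. A copy was said to cross a junction when its single exon held at least 30 bases, or 10 residues, on both sides of it. Only junctions within the aligned range of the parent were counted, which can be fewer than its exons imply. Below, the junctions of a parent are those counted. The comparison was possible for 1098 copies, 66.5% of the total. Of these, 867 crossed at least 1 junction, or 79.0% with an interval of 76.5 to 81.3%. At least 2 junctions were crossed by 637 copies, and every counted junction of the parent by 358. Where at least 2 junctions of the parent were counted, 284 of 934 copies crossed every one. Among the 425 parents with a comparable copy, 369 had a copy that crossed. Copies that crossed held a median of 81.9% of the range of the parent, against 37.8% for those that did not. Crossing thus goes with the length of the match and is not independent support for the label. The remaining 231 of the 1098 crossed no junction by this measure and are called within 1 exon below. Some of them reach past a junction by less, since 911 copies crossed with 15 bases on each side. For the 231, the measure does not set the copy apart from a piece of the parent or of a duplicate of it.

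The place of a copy in the assembly went with this measure. There were 61 gene-rich scaffolds, each with at least 10 models of at least 3 exons, and they held 97.6% of all such models and 1137 copies, 68.9% of the total. On them 706 of 755 comparable copies crossed a junction, or 93.5%, with an interval of 91.5 to 95.1%. On other scaffolds 161 of 343 did, or 46.9%, with an interval of 41.7 to 52.2%. The other 513 copies lay on 471 scaffolds whose models ended at a median of 1473 bases, and 360 of the 513 were the only model on their scaffold. Copies on other scaffolds also held less of the target. The share with at least 80% of the range of the parent was 427 of 803 on gene-rich scaffolds, or 53.2%, and 103 of 378 on the others, or 27.2%. The intervals treat copies of the same parent as independent. Other scaffolds hold all 78 copies of COX1, all 48 of LOC105379528 and most of TRIM38, which are described below. What part these parents, or the shortness of the scaffolds, have in both differences was not tested.

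**Figure D2:**
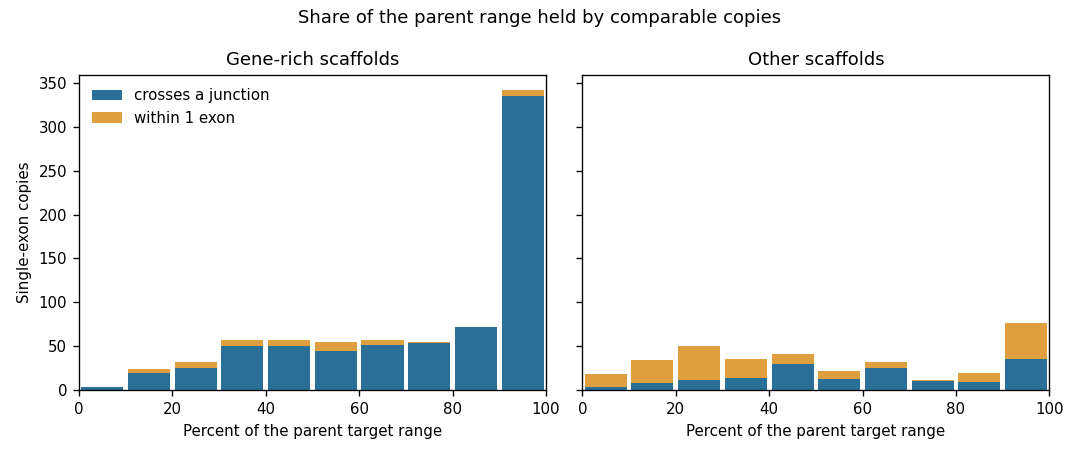
Single-exon copies (y axis, gene models) by the percent of the target range of their parent that they hold (x axis, bins of 10 points), on gene-rich scaffolds and on other scaffolds. Colours separate copies that cross a junction from those within 1 exon. The top bin is the highest in both panels. On gene-rich scaffolds 335 of its copies cross and 7 do not, and on other scaffolds 36 cross and 41 do not. On other scaffolds the copies also spread over the whole axis.

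For several of the largest parents the place or the match of the copies differed from what the label names, a complete message without introns inserted among other genes. The 78 COX1 copies lay on 78 scaffolds, none of them gene-rich, and 58 were alone there. Their scaffolds had a median extent of 1050 bases, measured to the end of the last model. The COX1 copy with the widest match, on scaffold 12066 from base 92 to 1601, held 98.4% of the range of the parent, and the narrowest, on scaffold 25002 from base 828 to 1010, held 11.9%. The median was 41.4%. On 9 of the 78 scaffolds a COX2 model lay beside COX1, and on 1 a model of ND2. COX2 and ND2 are also mitochondrial genes, and mitochondrial genes have no introns. The parent that let COX1 pass the criteria was a model of 3 exons on scaffold 5, from base 10805110 to 10808406 on the plus strand, and 55 of the 78 copies crossed 1 of its 2 junctions or both. The COX1 model with the highest score had 1 exon and lay on scaffold 11418.

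The loci known only by number fell into 2 patterns. LOC105379528 resembled COX1, with 48 copies on 48 scaffolds, none gene-rich, of which 45 were alone. They matched a median of 99.4% of the range of a 3-exon parent that itself lay on the small scaffold 769. Only 1 of the 48 crossed the 1 junction counted in this parent. LOC107986724 was spread more widely, with 33 of 65 copies on gene-rich scaffolds. Of its 59 comparable copies, 58 crossed the 1 junction counted in a parent on scaffold 78 that spans bases 56695 to 220871. One query protein gave rise to 24 LOC107986724 copies, to 16 of the 20 XYLB copies and to 6 of the 24 LOC107983994 copies. The same protein match was thus entered under 3 names. XYLB copies scored at most 17.2% of the best XYLB model, which has 19 exons on scaffold 12, and none was comparable with it.

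QSER1 gave a similar picture. All 15 QSER1 copies came from 1 query protein and matched the same end of the target, between positions 1255 and 1974, and 6 of them had the same range. They scored 3.38 to 9.06% of the 14-exon model on scaffold 18, and no copy was comparable with it. What sequence these matches rest on was not analysed here.

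Under 2 names of immune genes the copies matched only a small part of the target. TRIM38 copies lay on 13 scaffolds, and 28 of the 29 were outside the gene-rich ones. None of the 29 crossed any of the 5 junctions of the parent. The plot of target ranges shows them in 2 stacks, 1 before the first junction and 1 after the last. Each copy held 15.5 to 37.2% of the range, and 19 lay within 100 kb of another TRIM38 copy. SIRPA, an inhibitory receptor of myeloid cells, was chosen for display after its values were seen. Its 8 copies were each alone on a scaffold, held 19.1 to 23.6% of the range, and 4 of them crossed 1 of 6 junctions while the other 4 crossed none. The zinc finger names went the same way in place: 11 of 12 ZNF658B copies and 10 of 11 ZNF717 copies lay outside gene-rich scaffolds, and no copy of either could be compared with its parent. GVINP1 copies were the longest, with up to 6417 bases. This GTPase family is known for a coding region in 1 very large exon. Of 13 GVINP1 copies 9 lay outside gene-rich scaffolds, and 7 of 10 comparable ones crossed a junction.

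**Figure D3:**
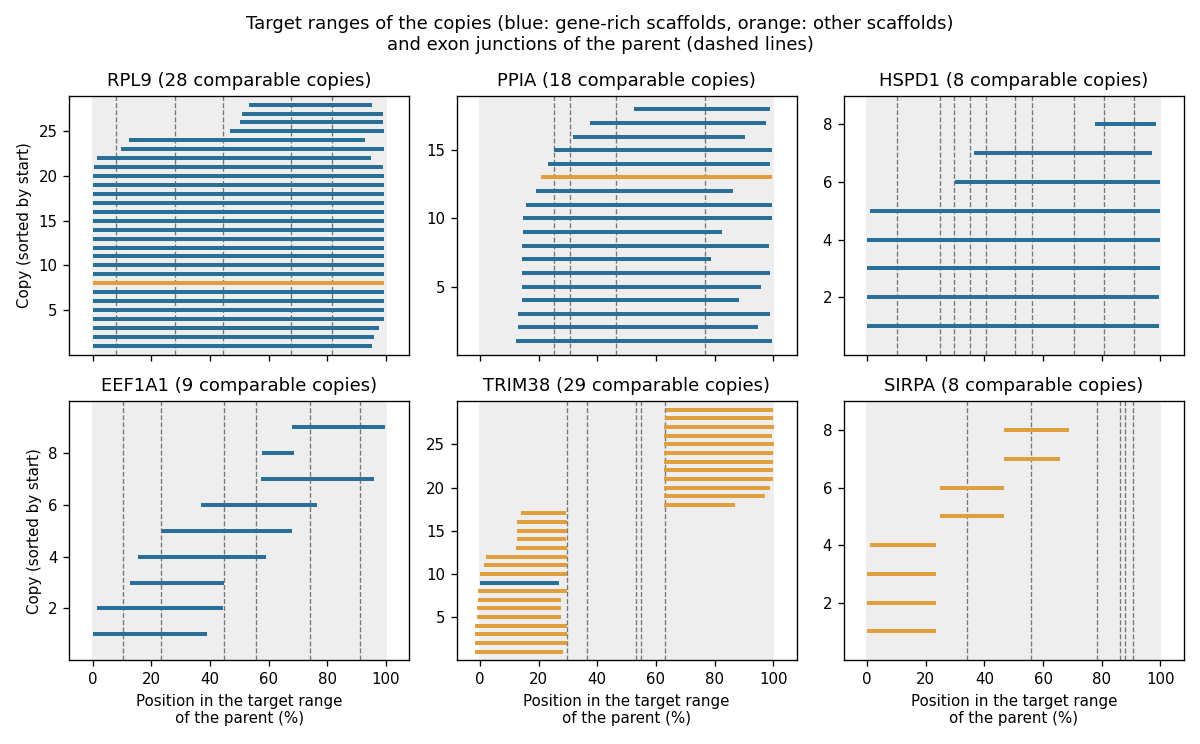
Target range of each comparable copy (horizontal bars, 1 copy per step of the y axis) as a percent of the target range of the parent (x axis), for 6 parents. Dashed lines mark the exon junctions of the parent, and blue and orange bars mark copies on gene-rich and other scaffolds. Most RPL9, PPIA and HSPD1 bars run across most of the junctions, EEF1A1 bars cover stretches of at most 44.3%, and TRIM38 bars stop at the junctions.

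Cytosolic ribosomal proteins had the highest share of names with a copy and the most copies of the 14 lists. Of 64 names in the list, which includes a few paralogs such as RPL7L1 and RPS27L, 52 had at least 1 copy. This is 81.25%, with an interval of 70.0 to 88.9%, beside 4.94% of all names. They had 331 copies, 20.1% of the total, and a median of 4 per parent with copies. Of the 331, 317 lay on gene-rich scaffolds, and 261 of 269 comparable copies crossed a junction. Their median range was 94.7% of that of the parent, against 71.2% over all comparable copies. Names without a copy by the criteria included RPL8, RPL18, RPL28, RPS3, RPS7, RPS9, RPS15, RPS28 and the paralogs RPL22L1 and RPL26L1. RPS7 and RPL26L1 have a single-exon model under the plain name.

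RPL9 and RPL21 were the ribosomal names with most copies. The RPL9 parent has 6 exons on scaffold 10, from base 43398204 to 43400837 on the plus strand, with a coding length of 579 bases. All 28 RPL9 copies crossed at least 2 of its 5 junctions, and 22 crossed all 5. Their range went from 42.0 to 99.5% with a median of 99.3%, so most held the whole coding sequence in 1 exon. Their scores reached 99.8% of that of the parent and had a median of 93.5%. The copy with that highest score lies on scaffold 38, from base 13672244 to 13672819, and another RPL9 copy lies 173 kb away on the same scaffold on the other strand. Only 18 of the 28 had a coding length that is a multiple of 3. The 27 copies on gene-rich scaffolds were spread over 19 of them, and the other lies on scaffold 10388.

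RPL21 differed from RPL9 in which model scored best. Its 29 copies all crossed at least 1 of the 4 junctions, 23 crossed all 4, and the median range was 99.8%. The parent, a 5-exon model on scaffold 6 from base 49666879 to 49668909 on the minus strand, itself carries a copy suffix and scored 93.2% of the best RPL21 model. That best model has no suffix and a single exon of 480 bases, on scaffold 16 from base 49088933 to 49089412. Copies on scaffolds 19 and 31 reached the same score, so which RPL21 model is the source gene cannot be read from the names or the scores. A pair of RPL21 copies on scaffold 8, at 31334323 to 31334802 and 31335296 to 31335775, lie on the same strand, each with 480 bases and 99.3% of the highest score.

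Other ribosomal proteins varied in completeness. All 18 RPL17 copies crossed a junction, with a median range of 98.6%, and 9 of 10 RPL15 copies crossed both junctions of their parent. RPL31 copies held 91.8% of the range or more where comparable. RPL10 copies were shorter, with a median of 50.6%, although all 11 crossed at least 2 of the 4 junctions. RPL29 copies held at most 80.7%, and RPL26 copies could not be compared at a junction.

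In the list of translation factors, 11 of 58 names had a copy. The lists were drawn by gene symbol, so some hold names outside their title. Examples are the kinase EEF2K here and HSPG2 among chaperones. EEF1A1 accounted for 11 of the 24 copies in the list. Its copies were partial: 8 of 9 comparable ones crossed a junction, but none held more than 44.3% of the range, and the best scored 25.9% of the highest EEF1A1 score. In the plot of target ranges the pieces start at different points along EEF1A1, and together they span nearly the whole of it. EIF4A2, EIF4B and EIF4E2, named for factors of translation initiation, had 2 copies each. The 2 EIF4B copies lie 19 bases apart on the same strand.

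Chaperones and folding enzymes had copies for 14 of 92 names, and all 46 comparable copies of the list crossed a junction. PPIA led with 18 copies, 17 of them on gene-rich scaffolds. All 18 crossed a junction and 11 crossed all 4. Their range of 46.5 to 87.0% stops short of the parent, whose model runs further at its start than any copy. HSPD1, the mitochondrial chaperonin, was chosen for display after its values were seen. Its 8 copies were long, with 5 of them crossing all 10 junctions of the parent and scoring 91.1 to 95.8% of the highest HSPD1 score. HSPA8 had 7 copies and DNAJA1 had 6, both parts of the HSP70 system.

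Names of the respiratory chain and ATP synthase had 130 copies, of which 78 were COX1. Without COX1, 19 nuclear names remained. COX20 had 18 copies, and 11 of these had the same coding length of 198 bases. The 5 comparable COX20 copies crossed 1 or 2 of 3 junctions. ATP5L, a subunit of ATP synthase, had 5 copies, and ATP5F1 and COX7B had 4 each. Mitochondrial ribosomal proteins had copies for 8 of 57 names, 14% with an interval of 7.29 to 25.3%, below the cytosolic set. MRPL42 led that list with 4, and all 12 comparable copies of the list crossed a junction.

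High mobility group and histone-binding proteins had the second highest share of the 14 lists, 8 of 21 or 38.1%. SET, a histone chaperone, had 5 and HMGB1, a DNA-bending chromatin protein, had 4. RNA-binding and splicing proteins had copies for 17 of 88 names, led by the core splicing protein SNRPE with 4. Ubiquitin and its conjugating enzymes had copies for 8 of 31, led by UBE2V2, a partner of ubiquitin conjugation, with 4. Proteasome names had copies for 8 of 46, with PSMA2 and PSMB7 at 2 each, and glycolysis names for 4 of 22, led by lactate dehydrogenase A, LDHA, with 3. The intervals of these 5 lists overlapped one another.

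**Figure D4:**
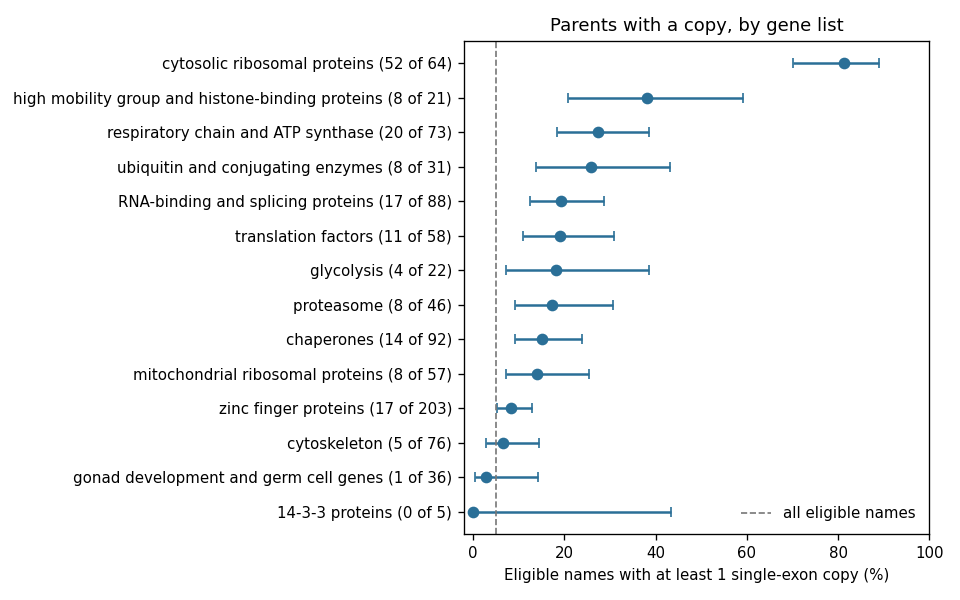
Percent of names with a model of at least 3 exons that have at least 1 single-exon copy (x axis), for 14 gene lists, with 95% Wilson intervals for counting error. The dashed line marks 4.94%, the value over all names. Cytosolic ribosomal proteins sit at 81.25%, and the cytoskeleton, gonad and 14-3-3 lists lie near or below the line.

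The 4 other lists are the cytoskeleton, 14-3-3, zinc finger and gonad lists. Of 76 cytoskeletal names 5 had a copy, 6.58%, close to the 4.94% over all names. TUBA1A had 5 copies, TUBA1B and ACTB 4 each, KRT8 3 and TUBA4A 1. No model met the criteria for the 5 names of 14-3-3 proteins, adaptors that bind phosphorylated proteins, and the interval reaches 43.4%. A single-exon model of YWHAQ on scaffold 88 carries the plain name and so is no copy by the criteria, although it covered 100% of the range and crossed both junctions of the 3-exon model on scaffold 1. Zinc finger proteins had 63 copies for 17 of 203 names, 8.37% with an interval of 5.29 to 13.0%, and 11 of the 63 lay on gene-rich scaffolds.

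Among 36 genes of gonad development and the germ line, 1 had copies. This was NANOG, a transcription factor of pluripotent and early germ cells, with 3. The first lies on scaffold 3, from base 38377414 to 38377983 on the plus strand, and crossed 2 of 2 junctions with 97% of the range. The second lies on scaffold 13, from base 43484065 to 43484568 on the minus strand, and crossed 1 of 2 junctions with 100% of the range. The third lies on scaffold 24, from base 3826496 to 3826988 on the minus strand, and could not be compared. The 3 NANOG copies scored 31.3, 42.3 and 45.1% of the best NANOG model. No other name of that list met the criteria, a share of 2.78% with an interval of 0.492 to 14.2%.

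Of the 1650 copies 937, or 56.8%, from 521 names, were in none of the lists. The copy that crossed most junctions was among these. UBA3, a subunit of the enzyme that activates NEDD8, had a copy on scaffold 14 from base 52591049 to 52592395 on the minus strand that crossed all 15 junctions of its parent with a score of 98.5% of the highest. TM9SF3, a membrane protein, had a copy on scaffold 244 that crossed 13 of 13. In the lists, the copies of the chaperonin subunit CCT6A on scaffold 2 and of the RNA-binding protein PCBP2 on scaffold 7 also crossed 13 of 13. These 4 were chosen after their values were seen.

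Copies were short, and the coding length of many was not a multiple of 3. Their coding length had a median of 444 bases, from 111 to 6417, against 672 for the other single-exon models. These other models include those with barred names, 498 of them with the suffix, and models of mitochondrial genes such as CYTB. What part this make-up has in the differences in length and in multiples of 3 was not tested. Coding length was a multiple of 3 in 62.4% of copies, in 77.2% of other single-exon models and in 94.3% of models with at least 3 exons. The tool that built the models differs between these sets, since exonerate built 91.5% of the copies. Within exonerate models the shares were 62.6% for the copies, 74.0% for other single-exon models and 73.6% for models of at least 3 exons. On gene-rich scaffolds 162 copies from 89 names crossed a junction, held at least 95% of the range and had a length that is a multiple of 3. Reading frames and premature stop codons were not analysed here, since no sequence of the build was used.

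The score in the deposited models, taken as a percent of the highest score under the same name, had a median of 51.3%. It was 64.9% for copies that crossed a junction and 38.9% for those within 1 exon, and 278 copies reached at least 90%. Copies that crossed were also longer, with a median coding length of 486 bases against 380, and the part of length in the score was not tested. Parents had shorter coding sequences than names without a copy. Their medians were 1099.5 and 1431 bases, and their exon numbers 8 and 9. Where a name had several models of at least 3 exons, the best-scoring one gave these values.

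Copies per 10 Mb varied among the gene-rich scaffolds, from 0 to 47.9. The highest value rests on 1 copy, on scaffold 84 with an extent of 0.209 Mb. There were 5.95 copies per 10 Mb over all 61, and 7 of the 61 had none. Scaffold 1 had most, with 66 copies of 52 parents, followed by scaffold 8 with 56 and by scaffolds 4 and 7 with 52 each. The number of genes on a scaffold did not order them in the same way. Scaffold 2 had 1133 models of at least 3 exons and 49 copies, and scaffold 8 had 312 such models and 56 copies. Of the 41 scaffolds of at least 10 Mb, scaffold 32 had the highest density, 14.1 per 10 Mb, scaffold 24 followed with 13.3 and scaffold 40 with 10.4. The median of the 41 was 5.45. Scaffold 39 had none in 13.0 Mb, and scaffold 28 had 1 in 25 Mb.

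Scaffolds 24 and 32 hold genes that are X-linked in other placental mammals. A list of 47 such names, chosen after these densities were seen, had 45 with a model of at least 3 exons and no suffix. Of these, 43 fell on 7 scaffolds with at least 2 each, 99.7 Mb in all, among them DMD on scaffold 24. The other 2 were DCX on scaffold 1 and UBA1 on scaffold 83. The 7 scaffolds had 121 copies, or 12.1 per 10 Mb, against 5.61 on the other 54 gene-rich ones. Copies that crossed a junction gave 7.12 against 3.50 per 10 Mb, and 94.7% against 93.4% of comparable copies crossed. Models of at least 3 exons were sparser there, 57.2 against 80.5 per 10 Mb. The 7 scaffolds were not alike: scaffold 30 had 4.14 copies per 10 Mb and scaffold 42 had 5.12, both below the 5.61 of the other gene-rich scaffolds, whereas scaffold 45 had 27.5 and scaffold 43 had 20.3. Whether these 7 are the mole X chromosome was not tested.

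**Figure D5:**
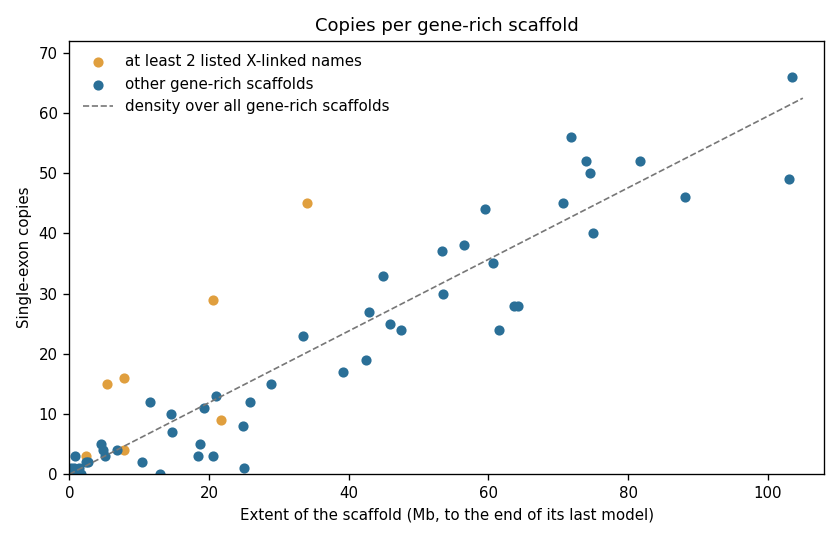
Single-exon copies (y axis) against the extent of the scaffold to the end of its last model (x axis, Mb) for the 61 gene-rich scaffolds. The dashed line is the density over all of them, 5.95 per 10 Mb, and orange points are the 7 scaffolds with at least 2 listed X-linked names, of which scaffolds 24, 32, 43, 45 and 50 stand above the line and scaffolds 30 and 42 below it.

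As sources of copies, names on these 7 scaffolds stood nearer to the rest. Of 520 names with a model of at least 3 exons there, 35 had a copy elsewhere, 6.73% with an interval of 4.88 to 9.22%. On the other gene-rich scaffolds 653 of 13417 did, 4.87% with an interval of 4.52 to 5.24%. The intervals overlap. RPL10, on scaffold 30 from base 650076 to 652101, and RPL36A, on scaffold 32, were the sources there with most copies, 11 and 10.

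Most copies overlapped no other model, among them the 360 that were alone on their scaffold. An overlap was found for 175 of the 1650. Of these, 164 lay within an intron and 11 over an exon. On gene-rich scaffolds the share that overlapped was 170 of 1137, 15%, beside 9.24% of other single-exon models and 6.91% of suffixed models with at least 3 exons on the same scaffolds. The other single-exon models were counted with barred names included. Models of at least 3 exons span 28.1% of the extent of the gene-rich scaffolds. All 175 lay on the strand opposite to the model they overlapped. This says nothing of insertion, because no pair of models on the same strand overlaps anywhere in the file, while 818 pairs on opposite strands do. A copy in sense orientation within an intron was therefore not in the file to be counted.

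Of the 164 intronic copies 162 lay in a model of at least 3 exons. These copies had 156 host models, and 6 hosts had 2 copies each. NUDCD3 on scaffold 12, a co-chaperone, held a copy of MRPS18C and a copy of RPL37A, which crossed 3 and 2 junctions. FBXL17 on scaffold 8 held copies of RPL6 and MND1. In the other 4 hosts both copies had the same parent: METAP2 in OLA1, MIA2 in IL26, EIF4B in DIRC2 and MOB4 in CMYA5. The EIF4B pieces in DIRC2 lie 19 bases apart, and the longer crossed 12 of 14 junctions.

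Some copies of the same parent lay side by side. Of the 1650, 156 lay within 100 kb of another copy of the same parent, from 59 names. Joining copies of the same parent on the same strand at most 1000 bases apart left 1601 loci, with 46 joined loci made of 95 copies. In 26 of the 46 the copies matched separate stretches of the same target, in the order in which they follow each other along their strand. GNPTAB, an enzyme of lysosomal sorting, gave the longest chain, with 4 copies on scaffold 14 between bases 29481939 and 29485290. They matched target positions 194 to 714, 874 to 1350, 1404 to 2573 and 2902 to 3782. FECH, the last enzyme of haem synthesis, had copies on scaffold 1 at 71507989 to 71508286 and 71508287 to 71509209, with no base between them. RPL5 had a pair on scaffold 23 with 1 base between, and MIA2 a pair on scaffold 19 with 1. ZFHX2 and KTN1 had pairs that overlapped on opposite strands, by 71 and 35 bases.

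A gene table of a later mole assembly, MPIMG_talOcc4v2.1 from RefSeq, was used for names and neighbours only. Of the 694 parents, 584 had the same symbol there. Flanking genes for the comparison were models of at least 3 exons whose name is used once in both. For 978 copies such a gene was found on each side, and for 923 of them the pair was also adjacent in the table. The table lists a pseudogene in the matching interval more often where a copy lay than where none did. In intervals under 100 kb on talOcc3 it did so in 82 of 160 with a copy, 51.25%, and in 678 of 8058 without, 8.41%. Between 100 and 500 kb the shares were 61.1% and 26.6%, and above 500 kb 82.0% and 50.1%. By parent, the share varied. Copies were counted there whatever the interval length, and copies in the same interval share its entry. Such an interval was found for 22 RPL9 copies and held a pseudogene for 15, for 20 RPL21 copies with 16, and for 11 EEF1A1 copies with 10. For LOC107986724 it was found for 24 copies with a pseudogene for 16, for XYLB for 7 with 3, for RPL15 for 9 with 5, for SET for 4 with 2 and for SNRPE for 3 with none. All 3 NANOG copies lay in an interval with a pseudogene. The interval on scaffold 24, between JADE3 and RP2, also held an RPL26 copy. Whether the pseudogene is the same sequence as the copy was not tested.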

How the data were processed

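The gene models on talOcc3 were used as deposited by the authors. Per the file headers and source column they come from EVM, exonerate and ALN, with versions not given in the sources used here. Each deposited model has a score with no stated scale, which was used only as a percent of the highest score that the file states for the name. Other columns used were positions, exon counts and target ranges. Models were counted, not gene IDs, since some IDs are shared. Selection, junction placement, overlap and intervals were computed in Python 3.11.15 with scipy 1.17.1. The junction step was tested on simulated models with targets in bases, no gaps and 1 parent each. Targets in residues, which 207 copies have, were not simulated. A junction comparison required the same target and unit, at least 1 junction in the aligned range of the parent, and at least 50% of the range of the copy within it. Positions count from 1.

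Members and the 14 gene lists were chosen with earlier results of these data known. Named were the 25 parents with most copies, the top parent of each list, the scaffolds with most copies, the closest pairs, the widest and narrowest match of the leading parent, and every copy in the gonad list. Others are stated as chosen later. In RefSeq, boundaries between sequences were inferred from drops in start position. Chromatin segmentations lie on talOcc4 or on mouse, and no coordinates were carried between builds, so they were not used here. Depth does not apply to these models. A few gene names are not reported here.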

Additional observations from a re-analysis of the deposited data

How the results depend on the processing

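Requiring at least 50% of the range of the parent, which only comparable copies can meet, left 767 copies of 298 parents. The counts stayed within 1.5 times of 1650 and 694 with parents of at least 2 exons (1817 and 736), parents of at least 5 exons (1159 and 569), a parent on any scaffold (1762 and 768), copies of at least 300 bases (1283 and 522) and without LOC names (1499 and 687). Without COX1, 1572 copies were left. The share with most of the range of the parent was 64.9% at a threshold of 50% and 36.8% at 90%, beside 44.9% at 80%. The share that crossed a junction was 83.0% with 15 bases on each side, 75.0% with 60, 84.9% for parents with at least 2 junctions, 85.2% without COX1 and LOC names and 93.5% on gene-rich scaffolds. These 5 settings, and the count without COX1, were chosen after the data had been seen. Overlap with another model was 10.6%, 15% on gene-rich scaffolds only, and 10.1% when the copy had to lie wholly inside. The median density over the 61 scaffolds was 5.77 copies per 10 Mb, or 71.4 per 1000 models of at least 3 exons. No paired analysis was possible because the result comes from no test.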

Other observations

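Single-exon models without a copy suffix were outside the criteria, although 142 of them, from 141 names, had a model of at least 3 exons of the same name on another scaffold. In these names the single-exon model carries the plain name. Of 81 comparable ones, 79 crossed a junction of that model, and 123 of the 142 lay on gene-rich scaffolds. The names included 17 cytosolic ribosomal proteins, and 60 of the 141 also had suffixed copies.

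Mitochondrial protein genes other than COX1 were outside the criteria because they had no model of at least 3 exons. Of 13 such genes 9 had models, 433 in all, of which 431 had a single exon. CYTB had 71 models, ND1 74, ND6 46 and COX2 40. COX1, with 80, was the only one with a model of 3 exons.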
